A study of Mus musculus with 2 samples.

Results

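The insulin-like growth factor (IGF) genes examined in 3T3-L1 cells were the ligands Igf1 and Igf2, the receptor gene Igf1r, and Igfbp2 to Igfbp7, which encode secreted IGF binding proteins. They were taken by name: every probe set that the array's probe annotation assigned to a single gene with one of these 9 symbols was kept, which gave 26 of the 45101 probe sets and 9 of the 18193 genes on the array. 3T3-L1 is a mouse preadipocyte line that becomes adipocytes when insulin, dexamethasone and 3-isobutyl-1-methylxanthine are added. One group was transfected with an siRNA specific for Phf21a, which encodes the corepressor subunit BHC80, and the other with siGL3, a control siRNA against luciferase. Both groups were induced 24 h after transfection and harvested 24 h after that, so the control cells were differentiating too, in DMEM with 25 mM glucose and 10% FBS. Each group was 1 array of 1 cell line, the labels name a single siRNA against Phf21a, and no value here has a replicate error or a test. The cells given the Phf21a siRNA are called knockdown cells here. The comparison asks how the IGF genes stand early in adipogenesis when Phf21a is reduced.

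IGF1 and IGF2 act mainly through the receptor tyrosine kinase IGF1R. Binding proteins hold the ligands in the medium and matrix, and proteases that cut those proteins set the ligands free. Preadipocytes carry more IGF1R than insulin receptor, so the insulin of the induction mixture works largely through IGF1R in these cells, and adipogenesis in culture needs that signal.

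Values are MAS5 signals on a linear scale, and a log2 ratio is Phf21a siRNA over control siRNA, so a negative value is lower in knockdown cells. Detection required that at least 1 of a probe set's signals be 51.3 or more, which is the median over both arrays. The local spread given with a log2 ratio is the scatter of ratios among the 1000 detected probe sets nearest in signal. It describes 1 array against 1 array, holds any true differences, and is not the spread between cultures. Since it is taken between the 16th and 84th percentiles, many detected probe sets lie past it, and passing it is not a test. Of the 26 IGF probe sets 19 were detected, 18 of them with both signals at the limit and 1, of Igfbp3, through the control array alone. These 19 covered 6 genes, Igf1, Igf1r, Igfbp3, Igfbp4, Igfbp6 and Igfbp7, each represented by its brightest detected probe set, while Igf2, Igfbp2 and Igfbp5 were undetected.

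Phf21a itself had a signal of 768 in control cells and 306 in knockdown cells, a log2 ratio of -1.33 with a local spread of 0.50, so the reduction matched the label. Adipocyte markers were detected in 4 of 7 cases, with Adipoq, Cebpa and Cidec undetected, and preadipocyte and fibroblast markers in 7 of 8. Of the detected adipocyte markers 2 were at least 1.5-fold higher and 0 lower, against 15.2% and 13.9% of all detected genes. These were the lipid carrier Fabp4 at a log2 ratio of 0.74 (local spread 0.38) and the adipogenic regulator Pparg at 0.67 (0.51). Cd36 was at 0.50 (1.06), and Lpl was at -0.15 (0.42) and -0.43 on a second probe set. The summed signal of the adipocyte list was 7725 in control cells and 10009 in knockdown cells. Of this, Fabp4 alone was 3502 and 5849, while Lpl was 3614 and 3253. Among preadipocyte and fibroblast markers 1 was at least 1.5-fold higher and 1 lower, against the same 15.2% and 13.9%. The higher was Pdgfrb at 0.84 (0.42) but 0.13 on a second probe set. The lower was the preadipocyte protein Dlk1 at -1.05 (0.31). The summed signals of this list were 53379 and 45712, with Dlk1 alone at 12290 and 5940 and Pdgfrb at 2092 and 3743. The part of these marker differences in the IGF values was not tested. The 5 endothelial and 3 hepatocyte markers were all undetected, with no signal above 34.9. Leukocyte markers were detected in 3 of 6 cases, without the pan-leukocyte gene Ptprc. Their summed signal was 197 in control cells and 236 in knockdown cells, but the detected ones went both ways. Cd68 was at 0.89 (0.65), Lyz2 at 0.42 (0.64) and Laptm5 at -1.58 (1.15). Laptm5 was detected through the control array alone, so it had to be lower to be counted. The ratio of the 3' to the 5' probe set, a sign of RNA quality, was 0.79 and 0.82 for Gapdh and 1.15 and 1.22 for beta-actin on the control and the Phf21a siRNA array. All 24 probe sets of the poly-A control RNAs were higher in knockdown cells, by a mean log2 ratio of 0.70. They read only the dap, lys, phe and thr RNAs, so they are not 24 separate observations. Why these probe sets were higher was not tested. Scaling the arrays to them (poly-A scaling) lowers the log2 ratios, puts the median of all detected genes at -0.69 and leaves 58.0% of detected genes at least 1.5-fold lower and 2.21% at least 1.5-fold higher. Small positive ratios given above or below would then be negative. The ratios of Fabp4 and Pparg are about as large as the mean of 0.70. In total RNA from whole cultures, fewer cells of a type and less messenger RNA per cell cannot be told apart.

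On the probe sets that represent them, Igfbp3 and Igfbp4 were each about 2.5-fold lower in knockdown cells and Igfbp6 was 1.63-fold lower. Averaged over its detected probe sets, Igfbp4 was at a log2 ratio of -0.89. Igfbp7 was 1.33-fold higher on its bright probe set but at -1.35 on its other detected one. The higher reading flips to -0.29 when the arrays are scaled to the poly-A controls. Igf1 and Igf1r differed by less than their local spread on every detected probe set, but with poly-A scaling they were at -0.72 and -0.84, both past 1.5-fold. At least 2-fold lower were 2 of the 6 detected IGF genes, against 5.47% of all 11301 detected genes, and 0 were at least 2-fold higher, against 5.72%. At least 1.5-fold lower were 3 of the 6, against 13.9%, and 0 were at least 1.5-fold higher, against 15.2%. With poly-A scaling 5 of the 6 were at least 1.5-fold lower, against 58.0% of all detected genes. The median log2 ratio of the 6 was -0.42, and that of all detected genes was 0.03.

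**Figure D1:**
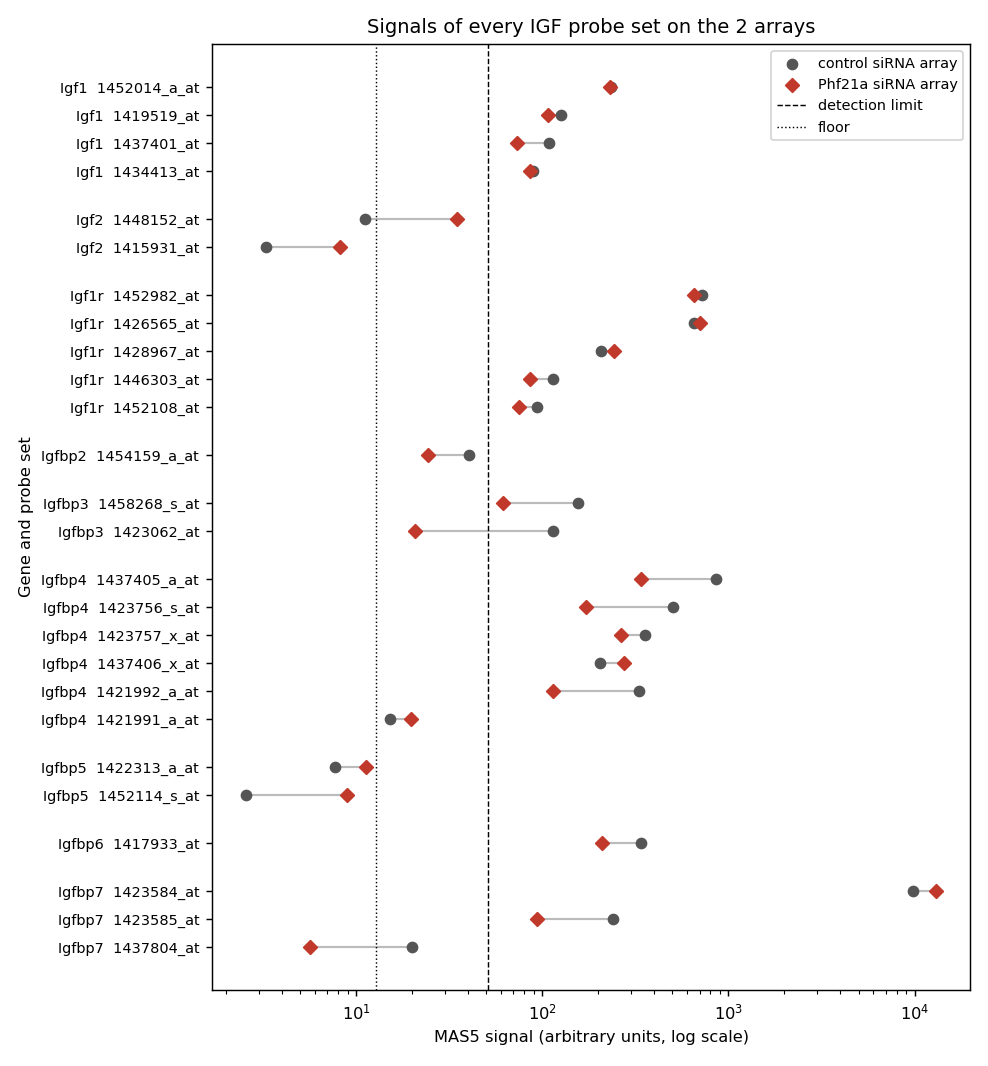
MAS5 signal (log axis, arbitrary units) of all 26 IGF probe sets on the control siRNA array (grey circles) and the array of knockdown cells (red diamonds), with the detection limit of 51.3 (dashed) and the floor of 12.9 (dotted). The pairs of Igf1 and Igf1r lie close together, those of Igfbp3 and most of Igfbp4 are apart with the control signal higher, and all probe sets of Igf2, Igfbp2 and Igfbp5 lie left of the detection limit.

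Igf1 (Entrez gene 16000) encodes the ligand that fibroblasts and fat tissue also make locally. Its brightest probe set, 1452014_a_at, had a signal of 233 in control cells and 230.0 in knockdown cells (log2 ratio -0.02, local spread 0.58). The others read 127 and 107 (1419519_at, -0.24), 108 and 73.0 (1437401_at, -0.57), and 89.4 and 85.7 (1434413_at, -0.06). All 4 probe sets were thus lower in knockdown cells, the lowest by 1.48-fold, and none passed its local spread. Their 8 signals all lay above the detection limit.

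Igf2 (Entrez gene 16002) encodes the fetal ligand and is expressed from the paternal allele. Neither of its probe sets was detected. Signals were 11.2 in control cells and 34.8 in knockdown cells for 1448152_at, and 3.30 and 8.16 for 1415931_at. The reading of 1448152_at was higher with the Phf21a siRNA, but its control signal lay under the floor of 12.9. Both signals of 1415931_at lay under that floor, so it gives no direction. No fold is given for either. Igf2os, the antisense transcript at the same locus, was undetected as well, at 28.7 and 44.3.

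Igf1r (Entrez gene 16001) was read by 5 probe sets, all detected on both arrays. The brightest, 1452982_at, had signals of 720 in control cells and 653 in knockdown cells (log2 ratio -0.14, local spread 0.52). The next, 1426565_at, went the other way at 655 and 707 (0.11), as did 1428967_at at 206 and 244 (0.24). The dimmer pair were lower, 1446303_at at 114 and 85.8 (-0.41) and 1452108_at at 93.2 and 74.8 (-0.32). The 5 ratios fell on both sides of 0, and each was smaller than its local spread. Over ligand and receptor together, 0 of 9 detected probe sets were at least 1.5-fold different, against 30.5% of all 23901 detected probe sets. With poly-A scaling all 9 ratios were below 0 and 8 were at least 1.5-fold lower, against 61.5% of detected probe sets.

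Igfbp3 (Entrez gene 16009) encodes the main IGF carrier of blood, which also binds at the cell surface. Its probe set 1458268_s_at had a signal of 156 in control cells and 61.8 in knockdown cells, 2.52-fold lower (log2 ratio -1.33, local spread 0.64). The second, 1423062_at, had 114 and 20.7, a log2 ratio of -2.46, but the lower signal was under the detection limit, and with it raised to that limit the ratio was -1.15. Both probe sets were thus more than 2-fold lower. Both were dim, and among the 1000 detected probe sets nearest in signal to the brighter one 7.5% were lower by 2-fold or more and 7.0% higher. Igfbp1, the neighbouring gene on chromosome 11 with 0 protein-coding genes between them, was undetected at 2.12 and 2.33.

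Igfbp4 (Entrez gene 16010) encodes a binding protein that mostly holds IGFs back from the receptor until the protease PAPP-A cuts it. On its brightest probe set, 1437405_a_at, the signal was 862 in control cells and 339 in knockdown cells, 2.54-fold lower (log2 ratio -1.35, local spread 0.51). Another, 1423756_s_at, had 501 and 171 (-1.55), and 1421992_a_at had 332 and 115 (-1.53). These 3 probe sets stood close together, each past its local spread. The remaining detected pair did not follow them: 1423757_x_at had 357 and 266 (-0.42) and 1437406_x_at had 205 and 274 (0.42), both within their local spread of 0.56 and 0.57. The ending _x_at marks probe sets in which some probes match other sequences too. The 3 lower probe sets carry endings as well, _a_at or _s_at, and no Igfbp4 probe set is without one. Which of them read Igfbp4 alone was not tested. A sixth, 1421991_a_at, was undetected at 15.2 and 19.6. With the detected probe sets averaged, the log2 ratio of Igfbp4 was -0.89, under 2-fold.

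Igfbp6 (Entrez gene 16012), whose product prefers IGF2 over IGF1, had 1 probe set, 1417933_at. Its signal was 340 in control cells and 208 in knockdown cells, 1.63-fold lower (log2 ratio -0.71, local spread 0.56). The ratio was past the local spread but short of 2-fold, and no second probe set was there to compare.

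Igfbp7 (Entrez gene 29817) encodes a matrix-associated relative that binds IGFs weakly. The probe set 1423584_at had a signal of 9793 in control cells and 13034 in knockdown cells, 1.33-fold higher (log2 ratio 0.41, local spread 0.28). Among the 1000 detected probe sets nearest to it in signal only 0.3% were higher by 2-fold or more and 1.1% lower, so scatter at this brightness was small. The dim probe set 1423585_at went the other way, from 240 in control cells to 94.0 (-1.35, local spread 0.62). Another, 1437804_at, was undetected at 19.9 and 5.62. The 2 detected probe sets of Igfbp7 therefore disagreed in direction, each past its local spread, and their mean was -0.47. No other detected IGF gene had a positive ratio on the probe set that represents it.

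Igfbp2 (Entrez gene 16008), which encodes a binding protein known to restrain fat cell formation, was undetected at 40.2 in control cells and 24.4 in knockdown cells (1454159_a_at). Igfbp5 (Entrez gene 16011), which encodes a binding protein that attaches to matrix, was undetected at 7.73 and 11.3 (1422313_a_at) and at 2.57 and 8.94 (1452114_s_at). The genes neighbour each other on chromosome 1 with 0 protein-coding genes between them. An undetected signal does not show that a gene was off.

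Over all binding proteins, 7 of 10 detected probe sets were at least 1.5-fold lower and 0 at least 1.5-fold higher, against 16.3% and 14.2% of all detected probe sets. At least 2-fold lower were 6 of the 10, against 6.73%, and 0 were at least 2-fold higher, against 5.31%. Of these 6, 3 belong to Igfbp4, 2 to Igfbp3 and 1 to Igfbp7, so they are not separate observations. The Igfbp3 probe set detected through the control array alone had to be lower to be counted. Without it, a count chosen after seeing the data, 5 of 9 were at least 2-fold lower. The 6.73% covers probe sets detected on either array and is not a matching share for that count. With both signals required at the limit, 3.34% of all detected genes were at least 2-fold lower, and the share of probe sets is not given here. With poly-A scaling all detected binding protein probe sets were at least 1.5-fold lower but 1437406_x_at of Igfbp4 (-0.28) and 1423584_at of Igfbp7 (-0.29). In that setting so were 61.5% of all detected probe sets, so the contrast with 16.3% depends on the scaling.

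**Figure D2:**
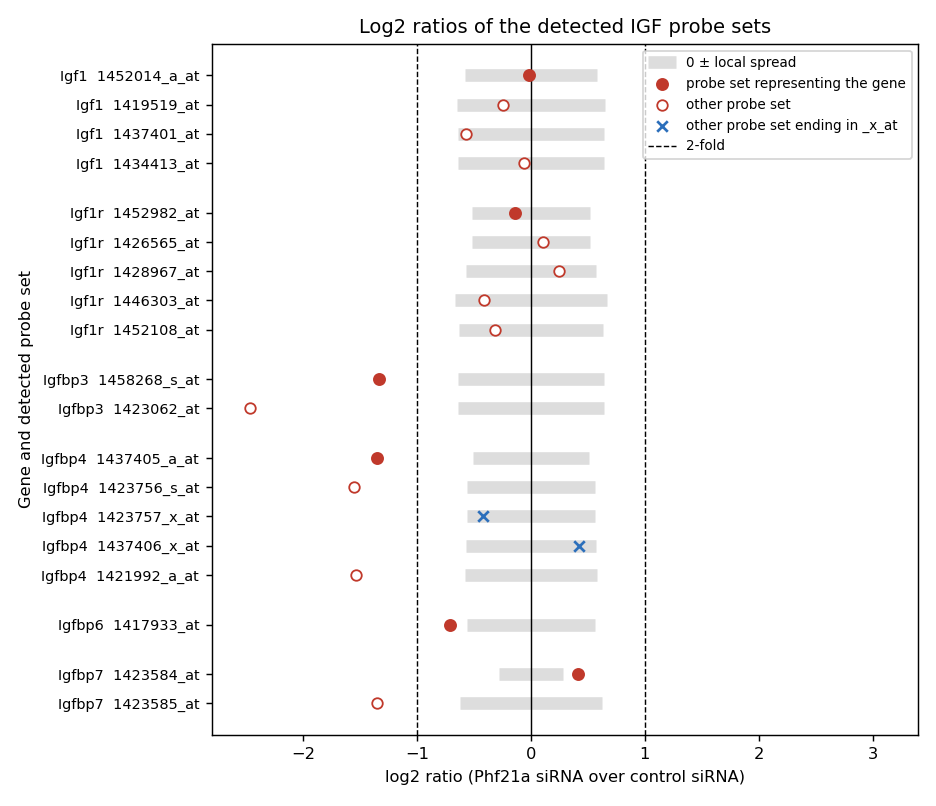
Log2 ratio (Phf21a siRNA over control siRNA) of each of the 19 detected IGF probe sets, with a grey bar of 0 ± the local spread and dashed lines at 2-fold. Filled red points represent the gene, open points are other probe sets, and blue crosses are other probe sets ending in _x_at. All 9 points of Igf1 and Igf1r lie within their grey bar, 6 points of Igfbp3, Igfbp4 and Igfbp7 lie below -1, and the Igfbp7 points lie on opposite sides of 0.

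**Figure D3:**
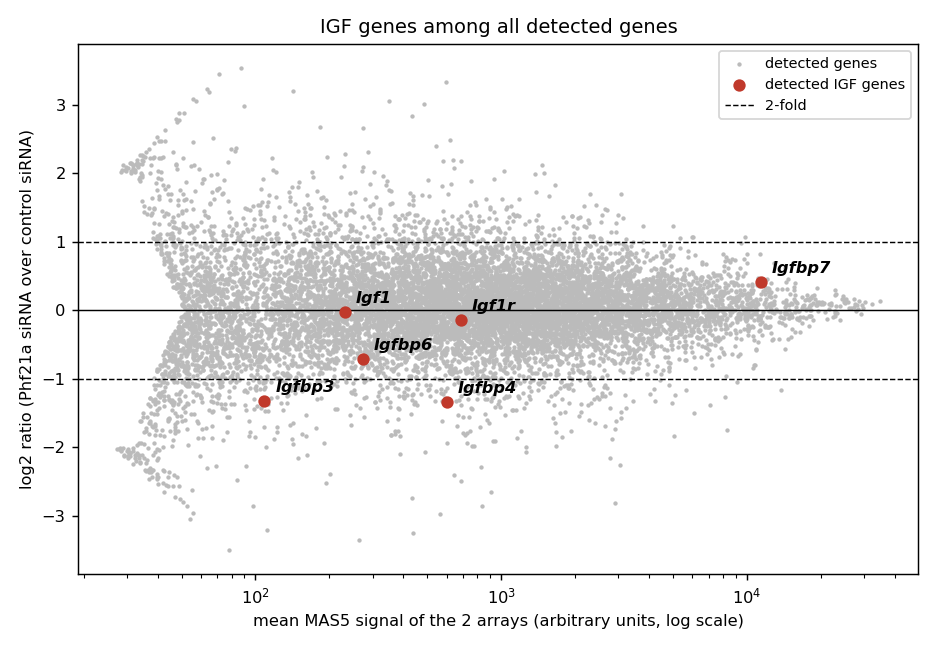
Log2 ratio against the mean MAS5 signal (log axis) for all 11301 detected genes (grey) and the 6 detected IGF genes (red), with dashed lines at 2-fold. Igfbp3 and Igfbp4 lie below the lower 2-fold line at -1.33 and -1.35, and Igfbp7, the brightest of the 6 points, lies at 0.41 (-0.29 with poly-A scaling) where the grey points are narrow.

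Promoters are set side by side for the 2 genes at least 2-fold lower and for Igfbp7, whose probe sets disagreed (0.41 and -1.35). The bases before each transcription start are shown. They are the 250 bases before the start in RefSeq's promoter table (GRCm38.p6), 5′ to 3′ on the gene's strand, from chr11:7213924-7214173 (minus strand) for Igfbp3, chr11:99040994-99041243 (plus strand) for Igfbp4 and chr5:77408046-77408295 (minus strand) for Igfbp7. Capitals mark every match, on either strand, to the motifs searched: TATANA (the TATA box), GGGCGG (the GC box bound by Sp factors), TGACG (the core of the cAMP response element), AGAACA (the core of the glucocorticoid response element) and TTGCNNAA (a C/EBP element).
Igfbp3: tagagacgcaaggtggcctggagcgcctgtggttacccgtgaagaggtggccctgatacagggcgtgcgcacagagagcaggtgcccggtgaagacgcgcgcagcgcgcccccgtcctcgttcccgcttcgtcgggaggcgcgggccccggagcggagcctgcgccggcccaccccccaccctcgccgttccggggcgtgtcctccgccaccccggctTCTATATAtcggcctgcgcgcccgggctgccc
Igfbp4: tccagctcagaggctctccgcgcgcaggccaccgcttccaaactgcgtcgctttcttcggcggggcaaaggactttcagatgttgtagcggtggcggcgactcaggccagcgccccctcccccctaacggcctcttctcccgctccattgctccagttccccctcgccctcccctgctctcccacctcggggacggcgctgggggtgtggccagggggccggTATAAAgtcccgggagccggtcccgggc
Igfbp7: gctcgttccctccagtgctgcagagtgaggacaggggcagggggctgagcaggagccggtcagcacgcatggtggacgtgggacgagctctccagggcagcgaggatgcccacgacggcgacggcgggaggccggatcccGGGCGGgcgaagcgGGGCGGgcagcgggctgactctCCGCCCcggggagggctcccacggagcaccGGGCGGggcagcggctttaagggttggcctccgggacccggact
Igfbp3 held 2 overlapping matches to TATANA, 32 and 30 bases before the start, and Igfbp4 held 1, 28 bases before it. Igfbp7 held 0 matches to TATANA and 4 to GGGCGG, which the other 2 promoters lacked. None of the 3 windows held a match to the other motifs. Of all 32851 RefSeq promoter windows of this length 22.6% held the TATA motif, 32.7% the GC box, 17.8% the cAMP motif, 16.1% the glucocorticoid motif and 9.56% the C/EBP motif. GC content was 73.2% for Igfbp3, 69.2% for Igfbp4 and 74.0% for Igfbp7, against a median of 52.4% over all windows, and the counts of CG were 32, 22 and 26 against a median of 6. A match is a description of letters and not evidence of binding.

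Other genes of the IGF axis were taken in 4 lists with 37 genes, of which 35 were on the array under a single symbol and 26 were detected. Past 1.5-fold were 6 that were higher and 5 that were lower in knockdown cells, against 15.2% and 13.9% of all detected genes, and the median log2 ratio was -0.06. Mmp7 of the 6 and Irs4 of the 5 were detected only through the array where they were high, which fixed their direction. With poly-A scaling 0 were past 1.5-fold upward and 15 of the 25 then detected downward, against 2.21% and 58.0% of all detected genes. The split between higher and lower thus depends on the scaling.

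On the receptor side, 2 of 8 detected genes were higher by 1.5-fold or more and 1 was lower, against 15.2% and 13.9% of all detected genes. With poly-A scaling these counts were 0 and 5, against 2.21% and 58.0%. Irs1, the adaptor that IGF1R and the insulin receptor phosphorylate first, had signals of 598 in control cells and 1132 in knockdown cells (log2 ratio 0.92, local spread 0.51). Its relative Irs2 had 107 and 198 (0.89, local spread 0.63). Both adaptors were thus higher by more than their local spread, each on a single probe set. With poly-A scaling they were at 0.22 and 0.19, smaller than the spreads of 0.51 and 0.63. Irs4 had 53.8 and 7.55, and with both signals raised to the detection limit it was at -0.07. Irs4 was detected through the control array alone, so it had to be lower to be counted. With both signals required at the limit, 0 receptor side genes were at least 1.5-fold lower. For that setting the share of all detected genes is given only at 2-fold, 3.34% lower and 4.16% higher. Insr, the insulin receptor, was at 214 and 177 (-0.27), and Igf2r, which clears IGF2 from the cell surface, at 743 and 1028 (0.47, and -0.23 with poly-A scaling), both within their local spread. The adaptor Shc1 was at 1373 and 1415 (0.04).

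Among binding protein proteases, their inhibitors and the ternary complex, 2 of 9 detected genes passed 1.5-fold upward and 1 downward, against the same 15.2% and 13.9%. With poly-A scaling the counts were 0 and 5, against 2.21% and 58.0%. Stc1, a stanniocalcin, which as a family inhibit PAPP-A, had signals of 244 in control cells and 54.7 in knockdown cells, 4.47-fold lower (log2 ratio -2.16, local spread 0.62). Its second probe set was undetected at 26.3 and 4.19. Stc2, the other stanniocalcin, was dim at 43.3 and 63.4 (0.55, local spread 0.73), and its other detected probe set went the other way at 56.7 and 31.4 (-0.85, local spread 1.17). Pappa, the protease that cuts IGFBP4, was at 131 and 100.3 (-0.38) on its brightest probe set and at 104 and 111 (0.09) on another, while its relative Pappa2 was at 70.2 and 119 (0.76, local spread 0.65, and 0.07 with poly-A scaling). Mmp7, a secreted metalloprotease, had 3.97 and 53.4, and with both raised to the detection limit it was at 0.06. Mmp7 was detected through the array of knockdown cells alone, so it had to be higher to be counted. With both signals required at the limit, 1 gene of this list was at least 1.5-fold higher. The share of all detected genes in that setting is again given only at 2-fold, 4.16% higher and 3.34% lower. Igfals, which joins IGFBP3 and IGF in a complex in blood, was undetected at 4.19 and 7.75.

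Of other proteins that carry an IGFBP domain, 2 of 7 detected genes were past 1.5-fold upward and 2 downward, against the same 15.2% and 13.9%. With poly-A scaling the counts were 0 and 4, against 2.21% and 58.0%. Ccn4, a matricellular Wnt target, had 553 in control cells and 273 in knockdown cells (log2 ratio -1.02, local spread 0.55), and 460 and 267 on a second probe set (-0.78). Ccn5, a matricellular protein made by fat precursors, had 509 and 1020 (1.00, local spread 0.53, and 0.30 with poly-A scaling). These CCN family members stood on opposite sides of 0. Ccn1 and Ccn2 were within their local spread at -0.16 and -0.17 on their brightest eligible probe sets, but other probe sets of Ccn1 were at -0.21, 0.43 and 0.55, the last past its local spread of 0.53. Htra3, a secreted serine protease, was at 163 and 264 (0.70), with other probe sets at 0.63 and -0.33, and lay near 0 with poly-A scaling. Kazald1, which encodes a secreted protein with an IGFBP and a Kazal domain, was at 131 and 81.1 (-0.69, local spread 0.64).

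Of the genes at the Igf2 locus or binding its messenger, Igf2bp1 and Igf2bp3 were detected. At least 1.5-fold higher were 0 of the 2 and 1 was lower, against 15.2% and 13.9% of all detected genes. With poly-A scaling the counts were the same, against 2.21% and 58.0%. Igf2bp3, an RNA-binding protein known for binding Igf2 leader sequences, had signals of 3137 in control cells and 1471 in knockdown cells (log2 ratio -1.09, local spread 0.43). All 6 of its probe sets were detected and lower, from -1.45 to -1.09. Igf2bp1 was at 1196 and 1344 (0.17, local spread 0.48), and at -0.53 with poly-A scaling.

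**Figure D4:**
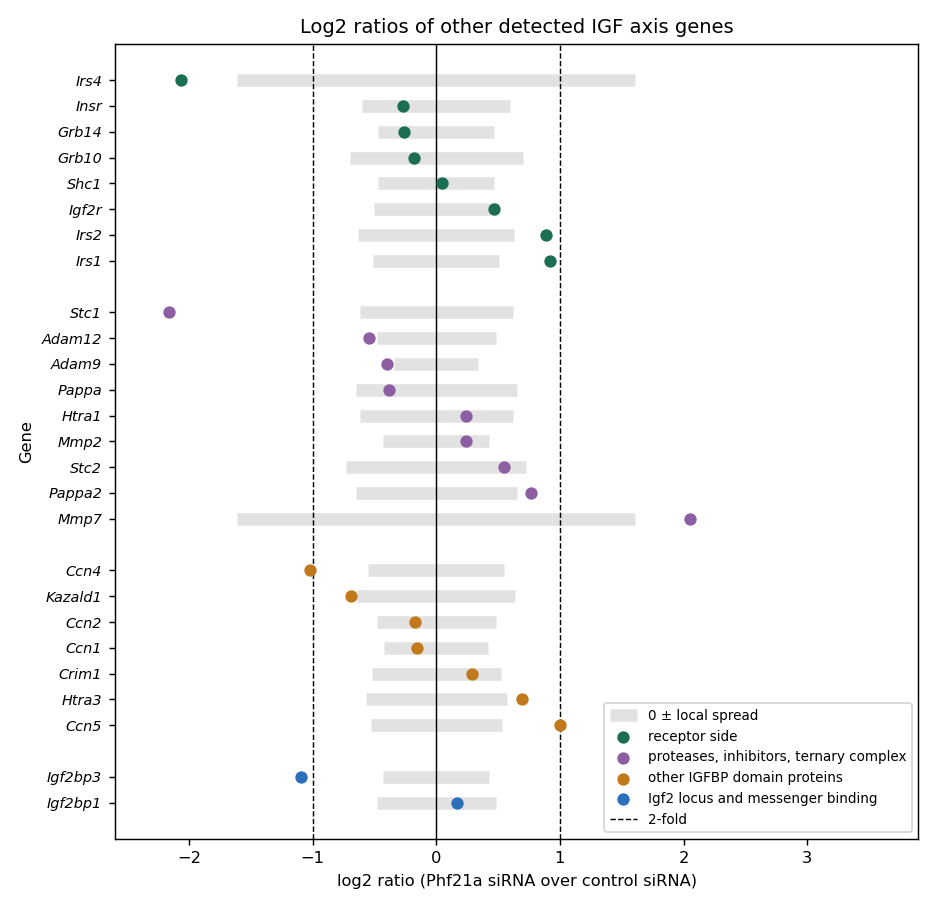
Log2 ratio (Phf21a siRNA over control siRNA) of the 26 other detected IGF axis genes, coloured by list, each with a grey bar of 0 ± the local spread and dashed lines at 2-fold. Irs1 and Irs2 lie right of their bars at 0.92 and 0.89, Stc1 and Igf2bp3 left of theirs at -2.16 and -1.09, and the outlying Irs4 and Mmp7 each rest on 1 signal under the floor.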

How the data were processed

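Biotin-labelled cRNA from 1 ug of total RNA was measured on 1 array a group. The deposited signal intensity was made by the authors with MAS5, per the submitters' processing notes, with no version given, and is linear. Of 45101 probe sets 64 were controls, 34945 had 1 gene symbol in the probe annotation, 932 several and 9160 none. Without the lowest and highest 2% both arrays had a mean of 497, so they share a common scale, which cannot show a change in messenger RNA per cell.

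Signals were raised to a floor of 12.9, the pooled 25th percentile, before log2. The brightest detected probe set stood for a gene, and _x_at probe sets only where no other was detected. The local spread is the range from the 16th to the 84th percentile, divided by 2. With 1 array a group no test or p-value was computed, and the number of arrays limits the precision. With 2 arrays a gene's pattern is 1 ratio, so genes of like pattern were not searched for. The procedure was tested on simulated data.

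The members and lists were chosen with earlier results of these data known. Named are all IGF probe sets, Phf21a and up to 6 genes of each list past 1.5-fold. Insr, Igf2r, Igfbp1, Igf2os, Igf2bp1, Shc1, Stc2, Pappa, Igfals, Ccn1 and Ccn2 were added after their values were seen. H19, Igf2bp2, Plin1 and Ly6a had no probe set under a single symbol. Muscle markers were detected in 2 of 5 cases and epithelial markers in 2 of 4. Alternatives were other normalizations, floors, pseudocounts of 1 and 16, detection limits, probe set choices and folds. Python 3.11.15 with numpy 2.4.6, pandas 2.3.3, statsmodels 0.14.6 and matplotlib 3.10.9 was used.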

Additional observations from a re-analysis of the deposited data

How the results depend on the processing

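The count of IGF genes at least 2-fold lower was 2, Igfbp3 and Igfbp4. It was 1 with the detection limit at the 75th percentile (461), which leaves 3 IGF genes and removes Igfbp3, 1 with averaged probe sets, where Igfbp4 was at -0.89, 1 without suffixed probe sets, which removes Igfbp4 and leaves Igfbp3 at -2.46, 0 at 3-fold, and 6 when every detected probe set was counted. With poly-A scaling it was 3, Igfbp6 joining at -1.40, while the share of all detected genes at least 2-fold lower rose from 5.47% to 27.3%. The count at least 2-fold higher was 0, and 1 with no detection limit, where Igf2 counts with 1 signal raised to the floor. The median log2 ratio of the detected IGF genes was -0.42, between -0.59 and -0.14 in the other alternatives and -1.12 with poly-A scaling, which put all detected genes at a median of -0.69. Across alternatives Igfbp3 lay between -2.46 and -1.14 and Igfbp4 between -2.04 and -0.89. Igfbp7 ranged from -0.47 to 0.42. Of 298 further values recomputed, 258 moved by less than the local spread or, for counts, by at most 1.5 times, 40 moved further, 22 of them under poly-A scaling. Of the 18 genes whose log2 ratio was recomputed, 2 turned sign: Igfbp7, at -0.29 with poly-A scaling and -0.47 with averaged probe sets, and Htra3, to just under 0 with poly-A scaling. No paired analysis was possible because each group held 1 array. With 1 culture a group, differences between cultures and the Phf21a reduction cannot be told apart.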
